A study of Mus musculus with 4 samples.

Results

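The mouse genes Ly6a, Ly6c1, Ly6c2, Ly6d and Ly6e are members of the Ly6 family that sit together on chromosome 15. These 5 genes, of 35275 gene entries in the count table, were named by symbol and were chosen by a rule made with earlier results of the same libraries known, among them the folds between genotypes. Their genotype folds are therefore a description and carry no test here. All 5 passed the filter on low counts, which was 2 CPM, counts scaled to a common library size, in at least 1 library.

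Ly6 proteins are small surface proteins that hang on the cell membrane by a glycosylphosphatidylinositol (GPI) anchor and share one compact, disulfide-bonded fold with the urokinase receptor. In mice, Ly6a encodes Sca-1, a marker of blood stem cells that interferons induce on lymphocytes. Ly6c1 and Ly6c2 encode the Ly6C antigen of monocytes and of subsets of mature and memory T cells, Ly6d encodes the ThB antigen of B-lineage cells and some thymocytes, and Ly6e encodes TSA-1 (Sca-2), an antigen of immature thymocytes. Alleles of the cluster differ between inbred mouse strains.

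RNA was sequenced from thymocytes of untreated C57BL/6 mice aged 6 to 8 weeks, in 4 groups of 1 library each. Mice labelled KO (Uba3ΔT in the design text, Uba3-/- in the genotype field) gave group 2 and group 3 cells, and mice labelled WT (Uba3F/F in the design text, wild type in the genotype field) gave the same populations. Group 2 was sorted as TCRβ intermediate, CD69 high and group 3 as TCRβ high, CD69 high, which are successive stages of thymocytes that have received a selecting signal through the T cell receptor. Uba3 is the catalytic partner in the NEDD8-activating enzyme, which starts the attachment of NEDD8, a relative of ubiquitin, to proteins. The driver of the deletion and the number of mice in a library are not given in the sources used here.

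The labels need care in 2 ways. In the cell type field the WT libraries are all called group 2 and the KO libraries all group 3, which conflicts with the sample titles and the crossed design, and the titles were used. The targeted gene went against the KO label: Uba3 had 647 counts in the group 2 library labelled KO against 453 in its WT counterpart, and 856 against 356 in group 3. With scaling, Uba3 was 1.7-fold higher in the library labelled KO in group 2 (95% interval 1.5 to 1.92) and 2.06-fold higher in group 3 (1.82 to 2.34). A count over the whole gene does not separate deleted from remaining exons, so every direction below is that of the libraries as labelled.

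The libraries held between 8043077 and 10299863 counts, and 12490 genes passed the filter. Genes with any count numbered 23925 in group 2 labelled KO and 23325 in group 3 labelled WT. They numbered 20521 in group 3 labelled KO and 20440 in group 2 labelled WT, although these 2 libraries were the deeper ones. This difference crosses both labels, and its part in the folds of genes with few counts was not tested. The 15 genes that define T cells were all detected, with summed levels of 25037 and 30243 CPM in the group 3 and group 2 libraries labelled KO and 27958 CPM in each library labelled WT. With 1 library per group there is no replicate of any pair. Intervals below are exact conditional binomial (Clopper-Pearson) 95% intervals of a count ratio and cover counting error only. In bulk RNA, fewer cells of a type and less RNA per cell cannot be told apart.

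In the mm10 assembly (GENCODE M21 annotation) the members, all protein-coding, spanned 350 kb of chromosome 15. Ly6d (chr15:74762056-74763620, minus strand) lay 191 kb from Ly6e (chr15:74955051-74959905, plus strand), which was 35 kb from Ly6a (chr15:74994877-74998031, minus strand). Ly6c1 (chr15:75044018-75048830, minus strand) came 46 kb further on, and Ly6c2 (chr15:75108158-75111970, minus strand) 59.3 kb after it.

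The promoters of Ly6c1 and Ly6c2 (RefSeq, GRCm38.p6) are shown because these neighbouring copies shared the most transcript sequence of the members and yet had different values in both comparisons. Each window runs from 250 bases before to 50 after the gene start, 5′ to 3′ on the minus strand, at chr15:75048788-75049087 for Ly6c1 and chr15:75111922-75112221 for Ly6c2. Capitals mark bases that are identical between the copies when the windows are aligned.
Ly6c1: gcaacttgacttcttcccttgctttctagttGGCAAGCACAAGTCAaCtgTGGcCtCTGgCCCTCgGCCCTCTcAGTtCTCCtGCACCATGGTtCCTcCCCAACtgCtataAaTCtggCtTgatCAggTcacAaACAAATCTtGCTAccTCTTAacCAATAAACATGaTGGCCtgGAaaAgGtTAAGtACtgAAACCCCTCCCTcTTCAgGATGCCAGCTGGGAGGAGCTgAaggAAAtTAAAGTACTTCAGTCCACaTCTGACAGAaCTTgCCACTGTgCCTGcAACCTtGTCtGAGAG
Ly6c2: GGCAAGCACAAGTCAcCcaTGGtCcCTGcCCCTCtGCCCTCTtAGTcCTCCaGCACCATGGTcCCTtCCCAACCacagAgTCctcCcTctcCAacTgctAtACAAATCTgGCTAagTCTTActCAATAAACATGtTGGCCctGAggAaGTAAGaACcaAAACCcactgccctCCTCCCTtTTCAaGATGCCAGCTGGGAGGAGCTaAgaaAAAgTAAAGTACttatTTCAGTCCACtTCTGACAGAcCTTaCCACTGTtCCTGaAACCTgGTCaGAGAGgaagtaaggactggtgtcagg
Of 266 aligned bases, 208 were identical (78.2%). Searched on both strands, with positions counted from the gene start, the Ly6c1 window held a TATA-like match (TATAAA) at -143, a motif present in 13.6% of 32851 promoters. The Ly6c2 window held a RUNX match (TGTGGT, on the reverse strand) at -179, ETS matches (GGAAGT) at -106 and 29, and a KLF match (CACCC) at -237, motifs held by 16.8%, 23.8% and 57.5% of promoters. Neither window held GAAANNGAA (interferon response core, 8.56% of promoters), TTCNNNGAA (GAS, 8.3%) or TGACNNNGC (NRF2 element, 12.4%). No match overlapped another, and a match or its lack is a description of these windows.

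The order of the members was compared per gene length with the deposited RPKM (reads scaled for gene length and library size). Ly6e was the highest member throughout, at 2096 and 2942 RPKM in the group 3 and group 2 libraries labelled KO and 2596 and 2625 RPKM in those labelled WT. Between 18 and 28 genes of a library stood above it. In the same order of sorted groups, Ly6d followed at 453 and 641 RPKM with the KO label and 492 and 672 RPKM with the WT label, and Ly6a at 90.3 and 98.2 RPKM with the KO label and 29.3 and 31.6 RPKM with the WT label.

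The Ly6C genes were the lowest and changed places. Ly6c1 stood at 57.4 and 73.6 RPKM in group 3 and group 2 labelled KO, and at 11.4 and 10.5 RPKM in those labelled WT. Ly6c2 stood at 11.3 and 33.5 RPKM with the KO label and 6.38 and 14.7 RPKM with the WT label. Ly6c1 was thus above Ly6c2 in 3 of the 4 libraries and below it in the group 2 library labelled WT. Steps between neighbours in this order were smallest for Ly6a over Ly6c1 in the group 2 library labelled KO (1.33-fold) and for Ly6c2 over Ly6c1 in the group 2 library labelled WT (1.4-fold), and with 1 library each they have no replicate spread.

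**Figure D1:**
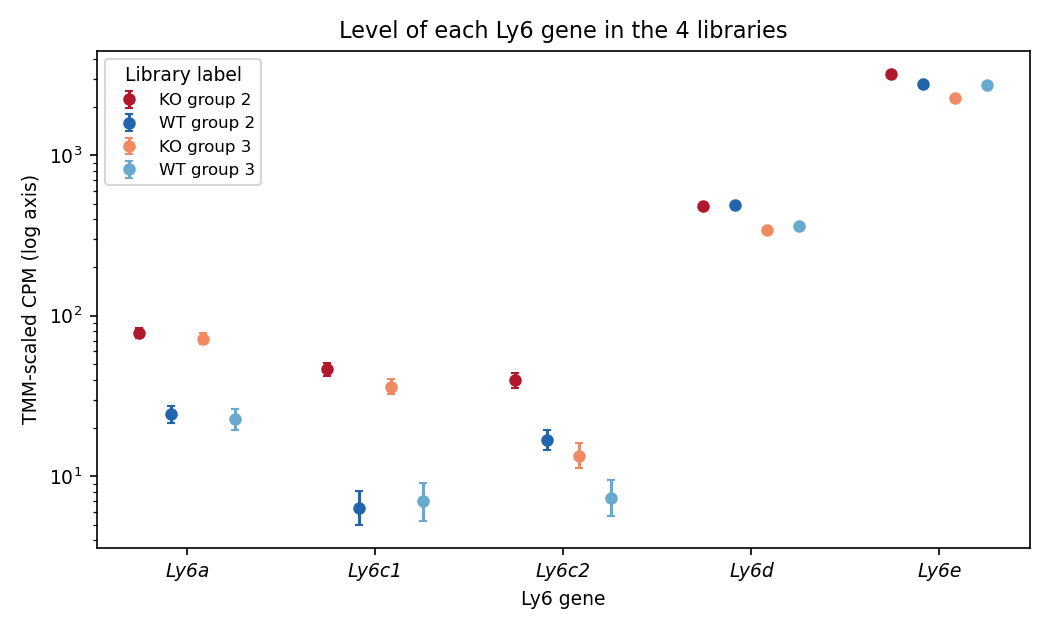
Level of each Ly6 gene in the 4 libraries as TMM-scaled CPM on a log axis; points are single libraries, and bars are exact 95% Poisson intervals of the count. Ly6a, Ly6c1 and Ly6c2 lie higher in the library labelled KO than in its WT counterpart in both sorted groups. Ly6d differs little between labels and lies lower in group 3 (343 and 361 CPM, KO and WT) than in group 2 (484 and 491 CPM). Ly6e lies between 2284 and 3199 CPM, a narrow range on this axis.

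Ly6a, the Sca-1 gene, was about as much higher in the libraries labelled KO in one sorted group as in the other. Its counts were 690 and 255 in the group 2 libraries labelled KO and WT, and 686 and 185 in the group 3 libraries. Scaled with TMM factors, these were 78.2 CPM (KO) and 24.3 CPM (WT) in group 2, and 72 CPM (KO) and 22.7 CPM (WT) in group 3. The lower library labelled KO was above the higher library labelled WT. How many of all measured genes show such an order of 2 against 2 libraries was not counted. The ratio of KO over WT was 3.22 (2.78 to 3.73) in group 2 and 3.18 (2.7 to 3.76) in group 3, and the group 3 ratio was 0.987 of the group 2 ratio (0.795 to 1.23, Woolf interval for counting error).

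Ly6c1 had the largest genotype fold of the members. It had 409 counts in the group 2 library labelled KO against 67 in that labelled WT, and 345 against 57 in group 3. The levels were 46.3 CPM (KO) and 6.38 CPM (WT) in group 2, and 36.2 CPM (KO) and 6.99 CPM (WT) in group 3. Ly6c1 was 7.26-fold higher in the library labelled KO in group 2 (5.59 to 9.54) and 5.18-fold higher in group 3 (3.91 to 6.99). In each of these pairs, at most 30 of the 12490 measured genes had a larger fold. The quotient of its group 3 and group 2 ratios was 0.714, with an interval that includes 1 (0.488 to 1.05).

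Ly6c2, the neighbouring copy, differed less between genotypes and more between sorted groups. Its counts were 351 in the library labelled KO against 177 in that labelled WT in group 2, and 128 against 60 in group 3. At 39.8 CPM (KO) and 16.9 CPM (WT) in group 2, and 13.4 CPM (KO) and 7.36 CPM (WT) in group 3, the genotypes overlapped across sorted groups: the group 3 library labelled KO was below the group 2 library labelled WT. The ratio of KO over WT was 2.36 (1.96 to 2.84) in group 2 and 1.83 (1.33 to 2.53) in group 3.

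Ly6d, the ThB gene, differed little between genotypes, with 484 CPM (KO) and 491 CPM (WT) in group 2, and 343 CPM (KO) and 361 CPM (WT) in group 3. Its ratio of KO over WT was 0.987 (0.948 to 1.03) in group 2 and 0.95 (0.903 to 0.998) in group 3. Ly6e, the TSA-1 gene, stood at 3199 CPM (KO) and 2758 CPM (WT) in group 2, and at 2284 CPM (KO) and 2743 CPM (WT) in group 3. The library labelled KO was thus the higher of the pair in group 2 (ratio 1.16, 1.14 to 1.18) and the lower in group 3 (ratio 0.833, 0.817 to 0.848), each by less than 2-fold.

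A gene was counted as higher or lower in a pair of libraries at 2-fold or more on the log2(CPM + 0.5) scale with a ratio interval that excludes 1. By this rule 3 of the 5 members (Ly6a, Ly6c1 and Ly6c2) were higher in the library labelled KO in group 2, where 6.45% of measured genes were higher and 2.44% lower. In group 3, 2 members (Ly6a and Ly6c1) were higher, where 2.17% of measured genes were higher and 5.6% lower. No member was lower in either pair, and since the members were chosen from this contrast the counts only describe them. The median log2 fold over all measured genes was 0.00 in group 2 and -0.01 in group 3.

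**Figure D2:**
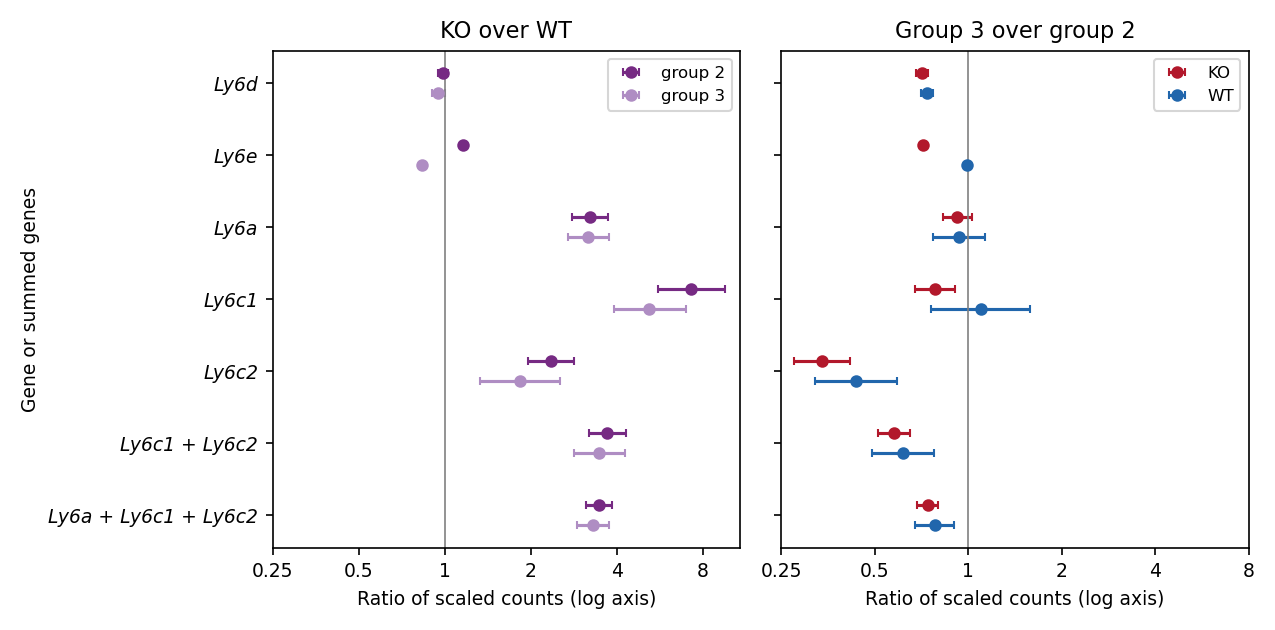
Ratio of TMM-scaled counts on a log axis for each Ly6 gene and for summed genes, with KO over WT on the left and group 3 over group 2 on the right; points are 1 pair of libraries and bars are exact 95% intervals for counting error. The genotype ratios of Ly6a and Ly6c1 lie well above 1, those of Ly6d and Ly6e near 1, and Ly6c2 is the member with the lowest group 3 over group 2 ratios.

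The sorted group comparison asks how the genes change along maturation, and it was tested with edgeR's quasi-likelihood test over both genotypes (Benjamini-Hochberg adjustment over all 12490 genes, threshold 0.05). Ly6c2 fell in group 3 relative to group 2, with a fitted log2 fold of -1.40 (SE 0.25, edgeR adjusted p = 2.44e-06). Its ratio of group 3 over group 2 was 0.338 (0.274 to 0.415) with the KO label and 0.436 (0.32 to 0.588) with the WT label. Ly6d also fell (log2 fold -0.47, SE 0.14, edgeR adjusted p = 0.027), with ratios of 0.708 (0.677 to 0.742) and 0.736 (0.703 to 0.771) for the KO and WT labels.

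The other members did not pass this test. Ly6a had a log2 fold of -0.11 (SE 0.19, edgeR adjusted p = 0.987), Ly6c1 of -0.16 (SE 0.24, edgeR adjusted p = 0.986) and Ly6e of -0.25 (SE 0.12, edgeR adjusted p = 0.391). Ly6c1 had a ratio of 0.782 (0.676 to 0.905) with the KO label and 1.1 (0.756 to 1.58) with the WT label. Ly6e was lower in group 3 with the KO label (ratio 0.714, 0.702 to 0.727) and nearly level with the WT label (0.994, 0.977 to 1.01).

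Over all measured genes the edgeR test called 2.21% higher and 1.14% lower in group 3, against 0 members higher and 2 lower. By the 2-fold rule Ly6c2 was lower in group 3 with both labels and no other member was called. That rule called 1.85% of genes higher and 5.99% lower with the KO label, and 5.22% higher and 1.86% lower with the WT label. The Ly6c2 call held with DESeq2's Wald test (adjusted p = 0.0226), while the Ly6d call was lost there (adjusted p = 0.0739). This test has 1 residual degree of freedom per gene, and its error was pooled over genes. That error reflects how far steps differ between genotypes across genes. It is neither the gene's own difference between genotypes nor the spread between mice. Neither call held in fits with any 1 library left out, which also lack the genotype term. Their log2 folds lay between -1.94 and -0.69 for Ly6c2 and between -0.51 and -0.43 for Ly6d. With all 4 libraries, an edgeR fit without that term lost both calls as well (adjusted p = 0.496 for each). The left-out fits thus cannot separate the missing library from the missing term. Results below with 1 library left out come from fits that lack the other factor in the same way.

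The balance within the Ly6C pair moved with both labels. Ly6c1 made up 53.8% of the summed Ly6c1 and Ly6c2 counts in the group 2 library labelled KO (exact binomial interval 50.2% to 57.4%, 760 counts) and 27.5% in that labelled WT (22% to 33.5%, 244 counts). In group 3 it made up 72.9% with the KO label (68.7% to 76.9%, 473 counts) and 48.7% with the WT label (39.4% to 58.1%, 117 counts). These shares were higher with the KO label in each sorted group and higher in group 3 with each label.

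The transcripts of the pair are alike, so a counting method could move reads between them. Of all 50-base stretches in the annotated transcripts of Ly6c1, 32.8% also occurred in another gene, with 21.5% in Ly6c2 and 11.1% in Ly6a. For Ly6c2 the share was 14.5% (13.9% in Ly6c1) and for Ly6a 19% (15% in Ly6c1), whereas Ly6d and Ly6e shared none. These shares are over all annotated transcripts of a gene, which for Ly6c1 gave 1764 stretches, of which 578 were shared. The deposited RPKM implies shorter counted lengths, of 620 bp for Ly6c1, 1170 bp for Ly6c2 and 784 bp for Ly6a. The share within the counted sequence was not computed and may be larger. How the authors treated reads with several matches is not given in the sources used here, so the split between Ly6c1 and Ly6c2 is uncertain. The summed counts of Ly6c1 and Ly6c2 were 3.7-fold higher in the library labelled KO in group 2 (3.2 to 4.3) and 3.46-fold higher in group 3 (2.82 to 4.28). With Ly6a added, the ratios were 3.45 (3.12 to 3.83) and 3.29 (2.89 to 3.74). The summed Ly6C ratio of group 3 over group 2 was 0.577 with the KO label and 0.617 with the WT label.

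Around the members, within 500 kb on either side of their span, 50 annotated genes were matched in the table and 13 were measured, of which 8 were not members. The edgeR test of genotype over both sorted groups called 1 of these 8, Arc, an activity-induced gene of neurons, which was higher with the KO label (log2 fold 0.85, SE 0.20, edgeR adjusted p = 0.00116), where 2.95% of all measured genes were called higher and 1.87% lower. Arc had 423 and 267 counts in group 2 labelled KO and WT, and 460 and 227 in group 3. The Arc call was lost with DESeq2 (adjusted p = 0.105) and with any 1 library left out (adjusted p from 0.0988). With no adjustment, at an edgeR p under 0.05, 2 of the 8 were higher with the KO label and 0 lower. Between sorted groups 0 of the 8 were called by edgeR or DESeq2, and 0 at an unadjusted p under 0.05.

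Of the other Ly6 relatives on chromosome 15, 18 were matched and 3 measured. Ly6k had 15.2 CPM (KO) and 9.15 CPM (WT) in group 2, and 13.3 CPM (KO) and 9.32 CPM (WT) in group 3 (log2 fold 0.62, SE 0.29, edgeR adjusted p = 0.294). Lynx1, a modulator of nicotinic receptors, had a log2 fold of 0.13 (SE 0.38, edgeR adjusted p = 0.962). The uncharacterised 2010109I03Rik had 9 and 29 counts in group 2 labelled KO and WT, and 13 and 30 in group 3, past the 2-fold rule on the lower side in both pairs, and missed the test (log2 fold -1.42, SE 1.01, edgeR adjusted p = 0.641).

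The remaining measured neighbours were also not called. D730001G18Rik had 25 and 8 counts in group 2 labelled KO and WT and was past the 2-fold rule there (edgeR adjusted p = 0.686), and Jrk, Them6 and Gm8000 had adjusted p of 0.98, 0.75 and 0.984 by edgeR. Other Ly6 genes of the stretch had few counts. Ly6i, between Ly6e and Ly6a, had 8 and 5 counts in group 3 and group 2 labelled KO and 2 and 0 in those labelled WT. Ly6g, the antigen of neutrophils, had 8 counts in the group 3 library labelled KO and 0 in each other library. A count of 0 allows up to 3 counts.

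**Figure D3:**
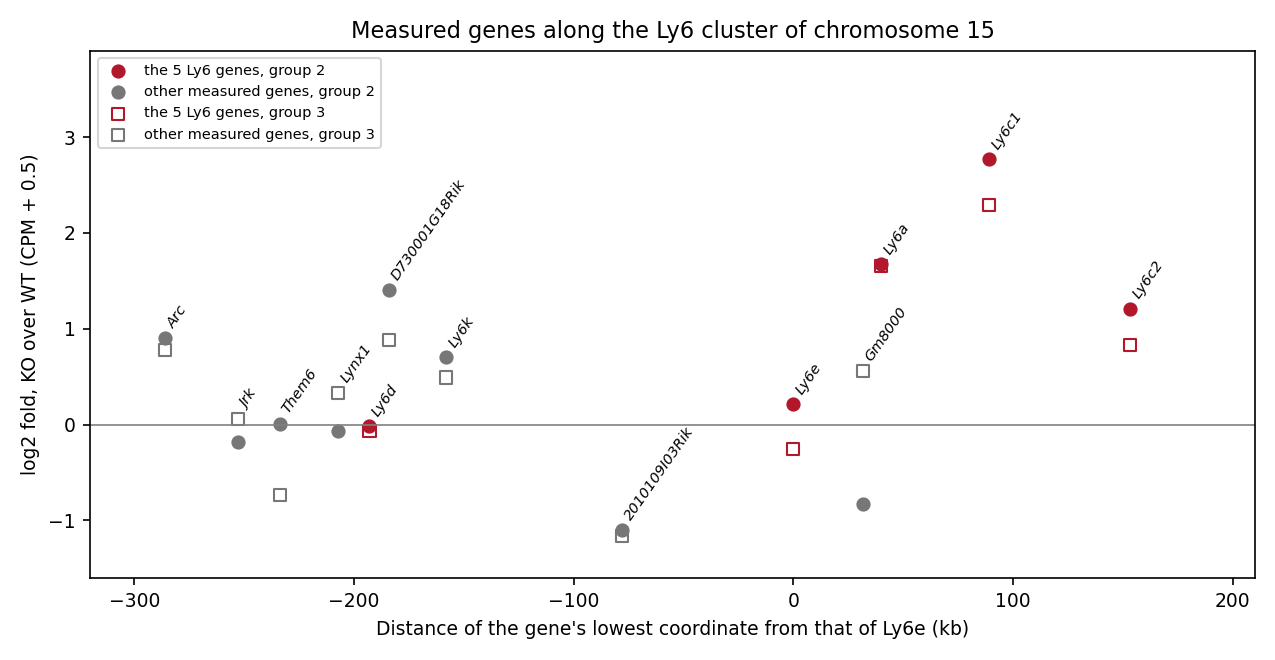
Log2 fold of KO over WT, on the CPM + 0.5 scale, for the 13 measured genes along the cluster against distance in kb from Ly6e, with filled circles for group 2 and open squares for group 3, each from 1 pair of libraries. Ly6a, Ly6c1 and Ly6c2 have positive folds in both sorted groups and Ly6d lies near 0. Of the other genes, Arc, Ly6k and D730001G18Rik are also positive in both sorted groups, 2010109I03Rik is negative in both, and Gm8000 is at -0.83 in group 2 and 0.56 in group 3.

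In a list of 29 genes of the wider Ly6 and urokinase receptor superfamily and its fold, mostly from other chromosomes, 6 were measured. By edgeR 2 of them were higher with the KO label and 0 lower (1 lower at an unadjusted p under 0.05), and DESeq2 called 1. Plaur, the urokinase receptor, had 25.7 CPM (KO) and 6.1 CPM (WT) in group 2, and 38.8 CPM (KO) and 10.4 CPM (WT) in group 3 (log2 fold 1.98, SE 0.24, edgeR adjusted p = 5.18e-13). Tgfbr2, a TGF-β receptor with a related extracellular fold, had a log2 fold of 0.58 (SE 0.16, edgeR adjusted p = 0.0131, lost with DESeq2 at 0.192), and Lypd6b of 0.26 (SE 0.20, edgeR adjusted p = 0.684). Lypd1 lay on the lower side, with 1 and 22 counts in group 2 labelled KO and WT, and 0 and 21 in group 3, and missed the test (edgeR adjusted p = 0.0802).

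The enzymes that build GPI anchors, on which all 5 members depend, had no genotype call. Of 29 listed genes 27 were measured, and 0 were higher or lower with the KO label by edgeR or by DESeq2. At an unadjusted edgeR p under 0.05, 0 were higher and 3 lower. Their median log2 fold of KO over WT was -0.01 for group 2 and 0.04 for group 3, against 0.00 and -0.01 over all measured genes. Pgap2, which remodels the anchor, had a log2 fold of -0.39 (SE 0.19, edgeR adjusted p = 0.355) and the anchor enzyme Pign of 0.40 (SE 0.22, edgeR adjusted p = 0.422). Between sorted groups 1 rose in group 3, the transamidase subunit Gpaa1 (log2 fold 0.55, SE 0.17, edgeR adjusted p = 0.0362), a call that DESeq2 did not make (adjusted p = 0.37).

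A further list held genes of the thymocyte surface, mostly of GPI-anchored proteins but also the transmembrane Efnb1 and Ceacam1. Among its 13 measured genes, 1 was called between genotypes. Izumo1r, folate receptor 4, was higher with the KO label (log2 fold 0.84, SE 0.16, edgeR adjusted p = 1.39e-05). Between sorted groups 2 of the 13 rose in group 3 and 2 fell. Thy1, the T cell antigen Thy-1 (log2 fold -1.13, SE 0.16, edgeR adjusted p = 1.03e-09), and Cd24a, the heat stable antigen of immature thymocytes (-0.62, SE 0.14, edgeR adjusted p = 0.000603), fell, as Ly6c2 and Ly6d did. Cd52 rose (0.73, SE 0.14, edgeR adjusted p = 6.52e-05, not called by DESeq2), as did Izumo1r (1.12, SE 0.16, edgeR adjusted p = 5.78e-10).

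Interferon-stimulated genes, a class to which Ly6a and Ly6e are assigned in mice, were set beside the members. All 34 listed genes, which leave out the members, were measured. This list and the others were chosen with earlier results of these libraries known, so their counts and adjusted p only describe them. Over all measured genes, edgeR called 2.95% higher and 1.87% lower with the KO label, and 2.21% higher and 1.14% lower in group 3. Of the 34 listed genes, 17 were higher with the KO label by edgeR and 0 lower. Their median log2 fold of KO over WT was 0.66 for group 2 and 0.53 for group 3. Between sorted groups 16 rose in group 3 while 0 fell. With DESeq2, 8 were called between genotypes and 6 between sorted groups, and with 1 library left out the edgeR counts were 1 to 14 and 0 to 1. Oas1a, an activator of RNase L, had 51.4 CPM (KO) and 8.57 CPM (WT) in group 2, and 61 CPM (KO) and 14 CPM (WT) in group 3 (genotype log2 fold 2.35, SE 0.22, edgeR adjusted p = 1.43e-23). Rsad2, which encodes viperin (1.45, SE 0.24, edgeR adjusted p = 5.57e-07), Rtp4 (1.31, SE 0.15, edgeR adjusted p = 4.25e-14) and Ifi44 (1.17, SE 0.35, edgeR adjusted p = 0.0201, lost with DESeq2 at 0.519) were also higher.

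The members' positions relative to this list varied. The log2 folds of KO over WT of Ly6a (1.67 for group 2 and 1.65 for group 3) and of Ly6c1 (2.77 and 2.29) were above the list's medians, while their fitted group 3 over group 2 folds were below 0 and missed the test. Ly6e had log2 folds of 0.21 for group 2 and -0.26 for group 3. Of 18 measured genes of interferon receptors and their signalling, 5 were higher with the KO label and 0 lower by edgeR, against 3 called by DESeq2 and 0 to 3 by edgeR with 1 library left out. Ifngr1, the ligand-binding chain of the interferon-γ receptor, had 1283 CPM (KO) and 690 CPM (WT) in group 2, and 1161 CPM (KO) and 624 CPM (WT) in group 3 (log2 fold 0.90, SE 0.13, edgeR adjusted p = 2.37e-09). Irf9, the DNA-binding part of the ISGF3 complex (0.91, SE 0.15, edgeR adjusted p = 7.93e-07), and the feedback inhibitor Socs3 (1.05, SE 0.27, edgeR adjusted p = 0.00412) were higher too, of which Socs3 was lost with DESeq2 (adjusted p = 0.365).

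**Figure D4:**
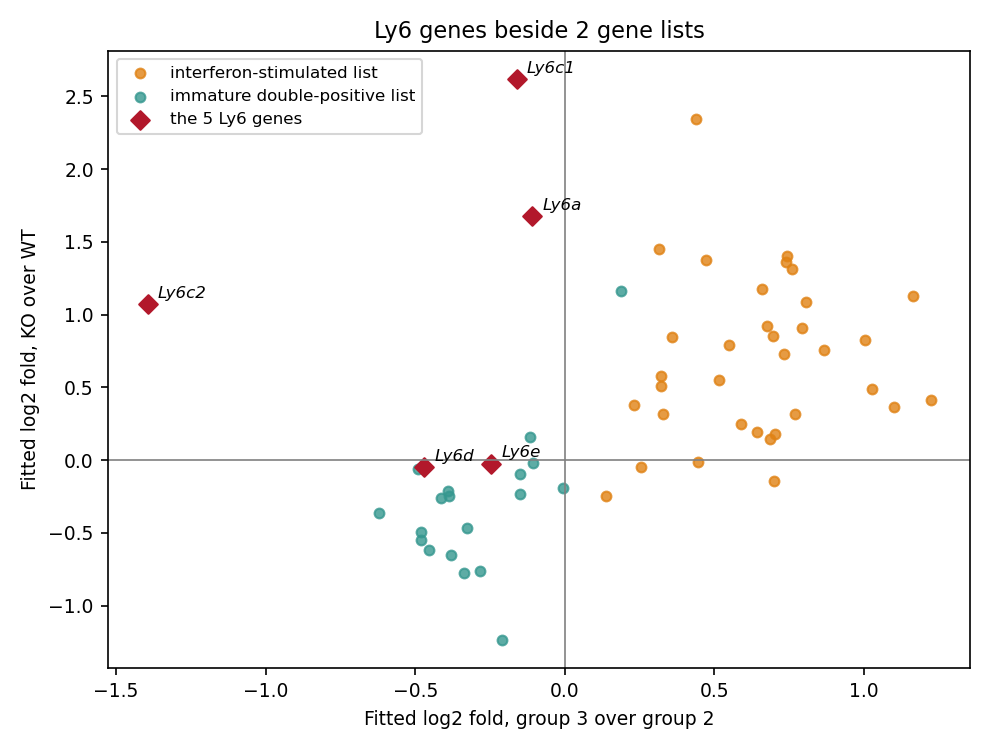
Fitted log2 fold of KO over WT against fitted log2 fold of group 3 over group 2 (edgeR, 4 libraries) for the 5 Ly6 genes, the 34 interferon-stimulated genes and the 19 genes of immature double-positive thymocytes; each point is 1 gene. The interferon-stimulated genes lie to the right of 0, while all 5 Ly6 genes lie to the left of it, with Ly6c1 the highest and Ly6c2 the furthest left.

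Genes of late thymocyte maturation and egress, a stage that Ly6C marks in part, included 20 measured of 22 listed. By edgeR 7 were higher with the KO label and 0 lower, and 13 rose in group 3 with 0 lower (3 and 10 called by DESeq2, and 0 to 4 and 2 to 4 by edgeR with 1 library left out). H2-Q7, a Qa-2 gene (genotype log2 fold 0.79, SE 0.15, edgeR adjusted p = 2.52e-05), and Cd44 (0.81, SE 0.22, edgeR adjusted p = 0.0102, lost with DESeq2 at 0.395) were among the higher ones. Of the 19 genes of immature double-positive cells, 8 were lower with the KO label and 1 higher, and 4 fell in group 3 while 0 rose (5 and 1 called by DESeq2). With 1 library left out, edgeR called 0 to 4 lower with the KO label and 0 between sorted groups. Ptcra, the pre-T cell receptor chain, was lower with the KO label (-1.24, SE 0.18, edgeR adjusted p = 8.03e-09), as was the recombinase gene Rag2 (-0.77, SE 0.16, edgeR adjusted p = 6.81e-05), while the fatty acid elongase Elovl6 was higher (1.16, SE 0.27, edgeR adjusted p = 0.00112, lost with DESeq2 at 0.227).

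In mature T cells, Ly6c2 is known as an effector and memory gene. Of 16 measured genes of effector T cells and their transcription factors, 1 was higher with the KO label and 0 lower by edgeR, and 3 rose in group 3. The 3 that rose were the transcription factor genes Zbtb7b (log2 fold 1.82, SE 0.29), Klf2 (0.83, SE 0.15) and Id2 (0.81, SE 0.15). Klf2 is also on the list of late maturation. Gzma, the granzyme A gene, was the 1 that was higher with the KO label (log2 fold 0.55, SE 0.16, edgeR adjusted p = 0.0201). DESeq2 called 0 between genotypes (Gzma adjusted p = 0.24). The other genes named from this list for their genotype fold lay on the lower side with the KO label and missed the edgeR test. Gzmb, the granzyme B gene, had a log2 fold of -1.40 (SE 0.53, edgeR adjusted p = 0.133), Cxcr3 of -1.14 (SE 0.76, edgeR adjusted p = 0.615) and Tbx21 of -1.58 (SE 1.16, edgeR adjusted p = 0.674). With limma-voom 1 gene of the list was higher with the KO label and 1 lower. Targets of NRF2, a stress factor, had 7 of 17 measured genes higher with the KO label and 0 lower by edgeR, against 3 called by DESeq2 and 1 to 2 by edgeR with 1 library left out. Of them, 0 were called between sorted groups by edgeR or DESeq2 (2 at an unadjusted p under 0.05). Nqo1 had 207 and 3 counts in group 2 labelled KO and WT, and 234 and 5 in group 3 (edgeR adjusted p = 1.33e-39). Of the genes named so far outside the members, Oas1a, Plaur and Nqo1 kept their genotype call with each of the 4 libraries left out in turn, and the other called ones lost it at least once.

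Since Ly6C, Sca-1 and ThB are also made by other cells, markers of those cells were read in the same libraries. Monocyte and macrophage markers summed to 203 and 226 CPM in group 3 and group 2 labelled KO, and 179 and 191 CPM in those labelled WT. In the same order, F13a1 made the largest part, at 69.8 and 93.3 CPM (KO) and 75.8 and 103 CPM (WT). Of 12 measured markers, 1 was called higher with the KO label by edgeR, C1qb (log2 fold 1.12, SE 0.34, edgeR adjusted p = 0.0252, not called by DESeq2), and 0 were lower. At an unadjusted edgeR p under 0.05, 3 were higher and 0 lower. Lyz2 (log2 fold 0.56, SE 0.19, edgeR adjusted p = 0.0642) and Cd68 (0.86, SE 0.35, edgeR adjusted p = 0.181) missed the test. Fcgr1, a defining receptor, had 3 and 1 counts in group 3 and group 2 labelled KO and 1 and 0 in those labelled WT. Neutrophil markers summed to 65.1 and 12.6 CPM in group 3 and group 2 labelled KO and 15.3 and 11.4 CPM in those labelled WT. The group 3 library labelled KO, which alone had Ly6g counts, stood apart through several of them. Ngp had 204 counts there against 2 to 6 elsewhere, and Ltf 72 against 0 to 1. S100a9 had 62 against 0 to 9, Lcn2 54 against 0 to 3 and S100a8 38 against 0 to 3. By edgeR 3 of 10 measured neutrophil markers were higher with the KO label and 3 rose in group 3, against 0 and 1 called by DESeq2, and Camp was at 0 in both group 2 libraries. The 3 with the genotype call were Ngp, Ltf and Chil3. In group 2, Ngp had 2 counts with each label and Ltf 1 (KO) and 0 (WT), so these 2 calls rest on the group 3 library labelled KO. Chil3 had 40 and 0 counts in group 2 labelled KO and WT, and 45 and 9 in group 3. Mmp8 had 18 and 0 counts in group 2 labelled KO and WT, and 26 and 4 in group 3. The receptor gene Cxcr2 lay on the other side, with 4 and 36 counts in group 2 and 10 and 41 in group 3 for the same labels (edgeR adjusted p = 0.141). The part of these cells in the Ly6 values was not tested.

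B cell markers summed to 800 and 1172 CPM in group 3 and group 2 labelled KO, and 1007 and 1152 CPM in those labelled WT. In the same order, most of this came from Ighm, at 722 and 1026 CPM (KO) and 931 and 1048 CPM (WT). Of 9 measured B cell markers, 0 were called between genotypes by edgeR or DESeq2 (1 at an unadjusted p under 0.05). The single marker called between sorted groups was Jchain, the joining chain of antibody-secreting cells, which also serves as a marker of plasmacytoid dendritic cells. Jchain, named after its values were seen, fell in group 3 (log2 fold -1.91, SE 0.22, edgeR adjusted p = 1.48e-14), with 108 and 505 counts in group 3 and group 2 labelled KO and 100 and 359 in those labelled WT. It thus moved in the direction of Ly6c2, while Ighm had a log2 fold of -0.34 (SE 0.13, edgeR adjusted p = 0.177) and Pax5 no more than 4 counts in a library.

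Plasmacytoid dendritic cell markers summed to 1844 and 2015 CPM in group 3 and group 2 labelled KO and 1881 and 1811 CPM in those labelled WT, mostly from Ccr9, which thymocytes also express. The defining Siglech had 27 and 47 counts in group 3 and group 2 labelled KO, and 26 and 2 in those labelled WT. In this list 1 of 13 measured genes was higher with the KO label (Cd74, log2 fold 0.50, SE 0.15, edgeR adjusted p = 0.0243, lost with DESeq2 at 0.35) and 1 rose in group 3. With no adjustment, at an edgeR p under 0.05, 4 of the 13 were higher with the KO label and 0 lower. Markers of NK and innate-like cells summed to 162 and 204 CPM in group 3 and group 2 labelled KO and 145 and 156 CPM in those labelled WT. In the same order, Gzma made the largest part, at 88.6 and 124 CPM (KO) and 64.6 and 80.1 CPM (WT). Of these markers, 1 of 14 was higher with the KO label by edgeR and 0 by DESeq2, and at an unadjusted edgeR p under 0.05, 2 were higher and 2 lower. Thymic stroma markers summed to 482 and 383 CPM in group 3 and group 2 labelled KO and 433 and 330 CPM in those labelled WT. Most of this came from Vim and Pecam1, at 311 and 122 CPM in group 3 labelled KO, while Foxn1 had at most 6 counts in a library. Of the measured stroma markers, 0 of 6 were called between genotypes by edgeR or DESeq2 and 0 at an unadjusted p under 0.05. The part of these cells in the fall of Ly6c2 and in the genotype folds was not tested.

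To find the genes with the most similar profile, the distance of log2(CPM + 0.5), centred over the 4 libraries, was taken over 8588 genes. These were the protein-coding genes with 10 CPM in at least 1 library, without predicted or unnamed genes and the Y chromosome, out of 9093 genes at that level. The closest to Ly6c1 were Pcsk1, a prohormone convertase (distance 0.187), Sdc1, syndecan-1 (0.238), Foxb1 (0.423), Ramp3 (0.475), Oas1a (0.618) and Dtx1, a regulator of Notch signalling (0.847). Pcsk1 had 12.9 and 14.6 CPM in group 3 and group 2 labelled KO, and 2.08 and 1.62 CPM in those labelled WT. Sdc1 had 13.9 and 20.2 CPM in group 3 and group 2 labelled KO and 2.45 and 1.91 CPM in those labelled WT.

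The closest to Ly6a were Hey1, a Notch-induced repressor (0.255), Acadl (0.333), Cebpb (0.365), the phosphatase gene Dusp5 (0.371), Klf11 (0.401) and Dusp4 (0.466). Dusp5 was the most abundant of them, with 694 and 621 CPM in group 3 and group 2 labelled KO, and 263 and 237 CPM in those labelled WT. No gene of either set of 6 lies on chromosome 15. With 4 libraries, likeness of this kind mostly reflects a similar genotype fold.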

How the data were processed

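TopHat2 2.0.12 and the mm10 assembly are named in the submitters' processing notes. The authors deposited raw counts per Ensembl gene for 4 libraries and an RPKM table for each. The counting program, its strand setting and its treatment of reads with several matches are not given in the sources used here, so reads of antisense and overlapping genes may be mixed. Every deposited RPKM with counts gave a whole gene length within 0.01 bp. Of 35275 gene IDs, 34490 matched a GENCODE M21 symbol.

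Groups followed the sample titles. Genes with 2 CPM in at least 1 library were measured (12490), and counts were scaled by TMM (edgeR 4.0.16, R 4.3.3). Ratios of 1 pair of libraries have Clopper-Pearson 95% intervals (SciPy 1.17.1) and no p-value. The sorted group and genotype effects were tested with edgeR's quasi-likelihood test (common dispersion 0.0288, 1 residual degree of freedom, Benjamini-Hochberg adjustment). Libraries are not stated to come from separate mice. With 1 library per group, the p-values rest on an error pooled over genes, from the part of an effect that differs across the other factor. They do not measure the spread between mice or between replicate libraries. Data were simulated for the sorted group effect on 12490 genes, with 1 common dispersion for every gene and no genotype effect. Changes were planted only in genes with a mean of at least 10 CPM. Of these, 76 of 200 genes changed 2-fold and 200 of 200 changed 4-fold were recovered, with 0 and 4 unchanged genes called. Recovery for genes with fewer counts was not simulated. DESeq2 1.42.0, limma-voom (limma 3.58.1), other scalings, filters and pseudocounts were alternatives, of which the list counts by DESeq2, by voom and with 1 library left out were chosen after seeing the data. Promoters were aligned with Biopython 1.88.

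The members and lists were chosen with earlier results of these data known. Named genes were the members, Uba3, measured neighbours within 500 kb, 6 genes most like Ly6c1 and 6 most like Ly6a, superfamily genes with 10 CPM, and up to 4 genes per list with the largest smaller genotype fold over both sorted groups. Gpaa1, Thy1, Cd24a, Cd52, Jchain, Ighm, Pax5, Fcgr1, Ngp, Camp and Siglech were named after their values were seen, as were the unmeasured neighbours. The same holds for F13a1, Foxn1, Ltf, Lcn2, S100a8, S100a9, Zbtb7b, Klf2 and Id2.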

Additional observations from a re-analysis of the deposited data

Results flagged for a closer look

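Ly6e had opposite genotype directions in the sorted groups. Its ratio of KO over WT was 1.16 in group 2 and 0.833 in group 3, and both counting intervals exclude 1. The difference between the sorted groups was not tested, since each ratio rests on 1 pair of libraries. Its quotient (group 3 ratio over group 2 ratio) was 0.718 with a counting interval of 0.7 to 0.736, and the 2 genotype ratios share no library.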

How the results depend on the processing

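Of 60 member folds under other size factors, plain totals or a pseudocount of 2 CPM, 58 stayed inside their counting intervals and 0 reversed; the others were Ly6e with plain totals (log2 0.16 in group 2, -0.31 in group 3). Summing Ly6c1 and Ly6c2 moved each to log2 folds of 1.87 (KO over WT, group 2), 1.76 (group 3), -0.79 (group 3 over group 2, KO) and -0.68 (WT); with Ly6a the values were 1.78, 1.70, -0.43 and -0.36. No paired analysis was possible because all groups carry the same single replicate number; the pairing by genotype is already in the sorted group test through its genotype term.

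Counts past 2-fold depended on the filter and pseudocount (higher, then lower). For KO over WT in group 2 they were 2419 and 551 with no filter, 178 and 101 at 10 CPM, and 314 and 112 with a pseudocount of 2 CPM; in group 3, 443 and 1816, 112 and 93, and 124 and 180. For group 3 over group 2 with the KO label they were 427 and 1951, 107 and 95, and 121 and 220; with the WT label, 1799 and 483, 130 and 53, and 203 and 86.

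Genes called for genotype (368 higher, 234 lower) numbered 125 and 54 with DESeq2, 17 and 6 without the sorted group term, and, leaving out 1 library, 25 to 139 higher and 11 to 70 lower. Genes called for sorted group (276 and 143) numbered 100 and 39 with DESeq2, 9 and 5 without the genotype term, and, leaving out 1 library, 2 to 36 higher and 5 to 10 lower; filterByExpr left 87 lower. Those leave-one-out fits have no term for the other factor, so an unpaired library carries the genotype difference into the step: the Ly6a step then ranged between -1.17 and 0.97 and the Ly6c1 step between -1.91 and 1.76 (log2). Both lie above 0 without the group 2 library labelled KO and without the group 3 library labelled WT (0.50 and 0.47), against values below 0 with all 4. Depth limits the Ly6C genes, with 57 and 67 counts of Ly6c1 and 60 and 177 of Ly6c2 in group 3 and group 2 labelled WT.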
